A study of Gallus gallus with 5 samples.

Results

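AMH, the gene of anti-Müllerian hormone, and AMHR2, the gene of its type II receptor, were examined in RNA of granulosa cells, which line the oocyte, from 6–8-mm follicles of broiler breeder hens. Rows were taken by gene symbol from a table of 24356 genes. Of the 2 symbols, AMH was found in 1 row (ENSGALG00000036346). No row carried the symbol AMHR2, while 10487 rows have no symbol, so the receptor was not analysed here and the results concern AMH and the genes it acts with. Up to 28 weeks of age all hens were reared by commercial guidelines. FF hens were then fed ad libitum and RF hens stayed on a restricted allowance, in both cases for a further 6 weeks. The 2 FF and 3 RF libraries each came from a different hen, with the granulosa cells of 5 to 6 follicles pooled per hen. FF hens were picked for sequencing because they had many preovulatory follicles, RF hens because they had a usual number, and each diet had its own pen, so diet, pen and follicle number cannot be told apart. A further FF library, discarded by the authors as an outlier in clustering, was not analysed here. The deposited values are counts per gene divided by a size factor per library and rounded, called normalized counts below, and they summed to 28891495 to 29491091 in FF libraries and 25929234 to 27277087 in RF libraries.

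AMH is a secreted hormone of the TGF-beta family. In the hen it is made by the granulosa cells of small growing follicles, and its mRNA is known to decline as follicles grow toward and past selection into the preovulatory hierarchy. The hormone binds AMHR2, which then pairs with a type I receptor shared with bone morphogenetic proteins. These receptors phosphorylate SMAD1, SMAD5 or SMAD9, which enter the nucleus with SMAD4. In mice, AMH restrains the recruitment of primordial follicles and the response of growing follicles to FSH.

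AMH was lower in both FF libraries than in any RF library, but the difference did not pass the test across all genes. It had 21048 and 17336 normalized counts in FF replicates 1 and 2, against 38052, 27826 and 23945 in RF replicates 1, 2 and 3. The groups did not overlap, and the lowest RF library was 1.14 times the highest FF library. Of all 13305 tested genes, 16.9% likewise had every FF library below every RF library, so this separation on its own is common in these data. AMH averaged 19190 ± 2625 normalized counts in FF libraries (SD, n = 2), against 29940 ± 7287 for RF libraries (SD, n = 3). FF hens and RF hens were compared with limma on log2(normalized count + 1), over genes with a mean of at least 10, and a gene was called at a Benjamini-Hochberg adjusted p under 0.05. The log2 fold change of AMH, FF minus RF, was −0.62 (SE, the standard error, 0.21, 95% interval −1.13 to −0.11 before adjustment), or 0.65 times the RF level with an interval of 0.456 to 0.928. The unadjusted p was 0.0245 and the adjusted p was 0.21. An exact permutation test of the log2 values, two-sided, gave p = 0.2 with the smaller tail doubled, which is the smallest p of that version, and p = 0.2 on the absolute difference, where 0.1 is the smallest.

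**Figure D1:**
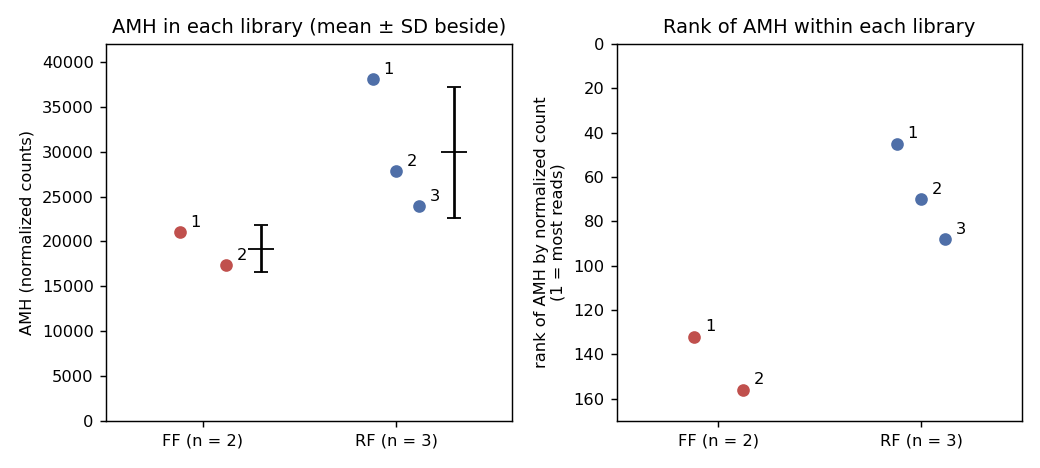
AMH in the 2 FF libraries (left in each panel) and the 3 RF libraries, numbered by replicate. The left panel gives normalized counts with the mean and SD drawn beside the points, and the right panel gives the rank of AMH among all genes of the same library, with rank 1 at the top. Both FF libraries, at 21048 and 17336 normalized counts, lie below the RF libraries, the lowest of which has 23945.

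A rank within a library does not depend on how libraries were scaled to each other. By normalized count AMH ranked 132 and 156 in FF replicates 1 and 2, against 45, 70 and 88 in RF replicates 1, 2 and 3. The FF and RF ranks did not overlap. They rest on the same AMH values as above, so this is not separate evidence. The share of genes with ranks that lie apart was not counted. Expressed over the genes above 0 in each library, AMH stood within the top 0.785% and 0.901% in FF libraries and within the top 0.26%, 0.402% and 0.501% in RF libraries. The mean rank was 144 ± 17 in FF libraries (SD, n = 2), against 67.7 ± 21.6 for RF libraries (SD, n = 3), with p = 0.2 in the exact permutation test, two-sided with the smaller tail doubled, and p = 0.1 on the absolute difference, each the smallest p of its version. Among genes with a symbol the ranks were 119 and 145 in FF libraries and 39, 62 and 79 in RF libraries. Counts grow with transcript length, for which no value was available, so the rank orders genes by reads and not by molecules, and it is set only against the rank of AMH in other libraries. As a share of all normalized counts in a library, AMH made up 0.0714% and 0.06% in FF libraries and 0.147%, 0.105% and 0.0878% in RF libraries. The genes next to AMH in this order differed between libraries. NAP1L1, a histone chaperone, stood directly above it with 21210 normalized counts in FF replicate 1, and PSAP, the precursor of the saposins, stood directly above it with 38330 in RF replicate 1.

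If 1 normalized count stood for about 1 read, counting alone would give an error of 0.689% and 0.759% of the AMH value in FF libraries and 0.513% to 0.646% in RF libraries. This condition is rough. By the authors' alignment summary, mapped reads varied more between libraries than normalized totals did, and RF replicate 1 had the fewest. The SD between libraries, which takes in hens, dissection and library preparation together, was 13.7% of the mean in FF hens and 24.3% in RF hens. On the log2 scale the SD of AMH within groups was 0.301. The 174 genes with a mean within 2-fold of that of AMH had a median of 0.164, and 85.6% of them varied less within groups than AMH did. In those 174 genes, 21 had every FF library below every RF library, a smaller share than the 16.9% of all 13305 tested genes. A log2 fold change at or below that of AMH was found in 6 of the 174. Its share over all tested genes was not counted, so this count does not show AMH to be unusual. AMH is included in the 21 and in the 6.

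The size of the AMH difference rested in part on RF replicate 1, the library with the most AMH. Without it the log2 fold change was −0.43 (adjusted p = 0.334 from limma). Without FF replicate 2, the library with the least AMH, it was −0.48 (adjusted p = 0.482). Leaving out FF replicate 1, RF replicate 2 or RF replicate 3 gave −0.76, −0.66 and −0.77, with adjusted p values of 0.365, 0.352 and 0.133. When libraries were rescaled to equal totals or equal upper quartiles the log2 fold change of AMH was −0.76 or −0.73. These scalings moved the median of all tested genes from 0.01 to −0.13 and −0.10. Relative to that median AMH stood at −0.63 under all 3 scalings. This was nearly fixed in advance, since each scaling multiplies all genes of a library by the same factor.

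**Figure D2:**
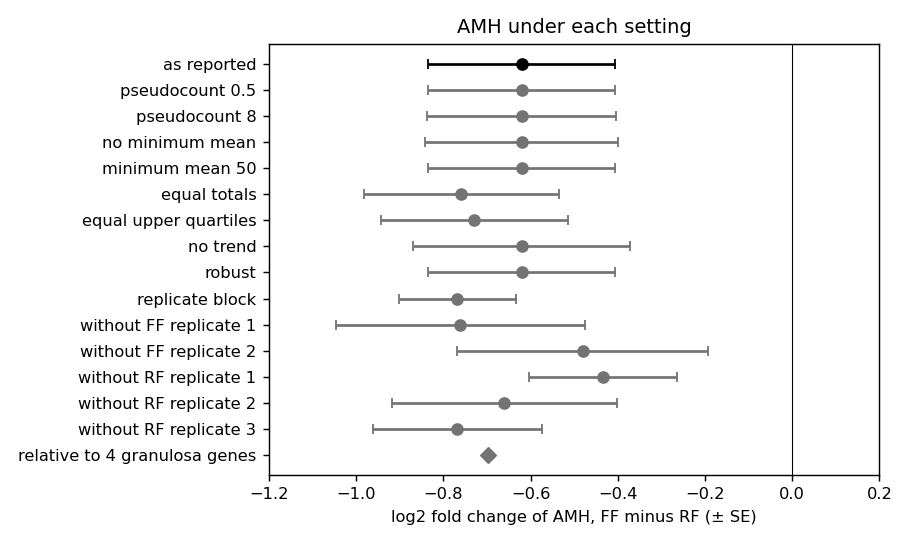
Log2 fold change of AMH, FF minus RF, as reported (black) and under each alternative setting (grey), with bars of 1 SE from limma. The diamond is the difference of the group means of AMH relative to 4 granulosa genes and has no error bar. All values lie below 0, between −0.77 and −0.43.

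The cells carried the markers of granulosa cells. FOXL2, a transcription factor that maintains granulosa identity, had 27392 and 15017 normalized counts in FF libraries and 23861, 24440 and 13657 in RF libraries, a log2 fold change of 0.02 (adjusted p = 0.986 from limma). GATA4, a transcription factor of granulosa cells, lay at 34175 and 38730 in FF libraries and 29524 to 35625 in RF libraries (log2 fold change 0.20, adjusted p = 0.52). INHA, an inhibin subunit and also a listed granulosa marker, was not level. It had 73862 and 36972 in FF libraries and 3392, 2980 and 3440 in RF libraries (log2 fold change 4.0, adjusted p = 0.0115 from limma). The 6 listed granulosa markers, INHA and AMH included, summed to 120564 to 169158 in FF libraries and 93495 to 105110 in RF libraries. The separation of these sums comes from INHA, so they do not measure granulosa cell content. In bulk RNA, fewer cells of a type and less RNA per cell cannot be told apart. Relative to the mean log2 value of FOXL2, GATA4, CDH2 (N-cadherin) and FSHR (the FSH receptor) in the same library, a reference chosen after values were seen, AMH stood at 0.60 and 0.52 on the log2 scale in FF libraries. In RF libraries it stood at 1.77, 1.17 and 0.83, a difference of −0.70.

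Markers of other cell types were mixed in their relation to AMH. CYP17A1, which theca cells use to make androgens, had 73 and 134 normalized counts in FF libraries and 1794, 84 and 207 in RF libraries. RF replicate 1, which had the most AMH, had the highest value for 7 of 10 theca and stroma markers and was tied for 1 more, LUM, at a count of 1. The summed level of these 10 markers was 7278 to 8006 in FF libraries and 5135 to 8320 in RF libraries, so that the groups overlapped. PDGFRA and TAGLN, of stroma and smooth muscle, were at 3 or lower in FF libraries. In RF libraries they had 56, 14 and 7 and 38, 10 and 8. LUM was at 1 or lower in every library. DCN had 2 and 1 in FF libraries and 13, 2 and 5 in RF libraries. ACTA2, a smooth muscle actin, ran the other way from AMH, with 3429 and 4257 in FF libraries and 1533, 1766 and 3402 in RF libraries, and COL1A2, a fibrillar collagen chain, had 3267 and 2435 in FF libraries and 2744, 2562 and 2080 in RF libraries. The 4 oocyte markers found, of 5 listed, summed to 723 and 754 in FF libraries and 940 to 1406 in RF libraries. Among these, BMP15 and GDF9, growth factors of the oocyte, put the 5 libraries in the same order as AMH did. BMP15 had 445 and 346 normalized counts in FF libraries and 682, 539 and 507 in RF libraries, and GDF9 had 175 and 146 in FF libraries and 359, 274 and 258 in RF libraries. Neither passed the test, with log2 fold changes of −0.54 and −0.87 (adjusted p = 0.251 and 0.134). DAZL, a germ cell RNA-binding protein, had 124 and 229 in FF libraries and 355, 179 and 170 in RF libraries, a different order, and DDX4, a helicase of germ cells, was at 12 or lower in every library. The 5 endothelial markers summed to 1561 to 2780 in FF libraries and 1471 to 2058 in RF libraries, most of it PECAM1, an adhesion molecule. KDR, a VEGF receptor, had 5 and 8 in FF libraries and 198, 21 and 32 in RF libraries. It did not overlap between groups and was highest in RF replicate 1. VWF, the von Willebrand factor, and CDH5 were also highest there, at 198 and 180, but overlapped between groups. PECAM1 and TEK overlapped too and were highest in FF replicate 2, at 2649 and 16. The 3 red blood cell markers found, most of it ALAS2, summed to 3628 to 3914 in FF libraries and 1282 to 1610 in RF libraries. ALAS2 passed the test as higher in FF hens (log2 fold change 1.33, adjusted p = 0.0224 from limma). The globin genes were far lower in count. HBA1 had 145 and 327 in FF libraries and 41, 27 and 60 in RF libraries, and HBBA had 114 and 269 against 41, 25 and 47. White blood cell markers summed to 762 to 1122 in FF libraries and 567 to 899 in RF libraries, and they were mixed. CSF1R had 130 and 154 in FF libraries and 304, 268 and 217 in RF libraries, lower in FF libraries without overlap. PTPRC had 140 and 91 in FF libraries and 69, 78 and 54 in RF libraries, higher without overlap. CD3E overlapped, with 852 and 517 in FF libraries and 194, 457 and 628 in RF libraries. The part of other cells in the AMH difference was not tested. Leaving out RF replicate 1 cannot test it, since that library had both the most AMH and the highest values of most theca and stroma markers. The values relative to granulosa genes use no marker of another cell type.

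AMH, the genes it acts with and genes that track follicle selection were described from a list of 35, of which 32 were tested. AMHR2, SMAD4, the shared partner SMAD, and SMAD7, an inhibitory SMAD, had no row under these symbols. Of the 32 genes, 5 passed the test as higher in FF hens, 0 passed as lower and 27 did not pass, with a median log2 fold change of 0.07. Over all tested genes 0.842% were called higher (112 genes) and 0.241% lower (32 genes), with a median of 0.01, and these counts became 90 and 70 with equal totals and 98 and 61 with equal upper quartiles. Every FF library lay above every RF library in 10 of the 32 genes, against 19.3% of all tested genes, and below in 5, AMH included, against 16.9% of all tested genes. The genes that passed were ID3, NR5A1, STAR, CYP11A1 and INHA. STAR, CYP11A1 and INHA are among 6 genes listed because AMH acts on them or because they track follicle selection. Without AMH and these 6, the list had 25 tested genes, of which 2 passed as higher and 0 as lower. Their median log2 fold change was −0.03. Every FF library lay above every RF library in 7 of these 25 genes and below in 3. STAR, CYP11A1, NR5A1 and INHA were known from earlier results of these libraries when the list was written, so their direction is not independent evidence.

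Of the 3 type I receptors, none passed the test. ACVR1, also known as ALK2, had 839 and 907 normalized counts in FF libraries, against 1078, 1203 and 1116 in RF libraries. The groups did not overlap, and the log2 fold change was −0.37 (SE 0.14, adjusted p = 0.231 from limma). BMPR1A, or ALK3, had 639 and 957 in FF libraries and 926, 997 and 1353 in RF libraries, with overlap between the groups and a log2 fold change of −0.46 (adjusted p = 0.377). BMPR1B, or ALK6, had 2260 and 2603 in FF libraries and 1833, 1749 and 2699 in RF libraries, and its log2 fold change of 0.24 had the opposite sign (adjusted p = 0.598).

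The receptor SMADs did not move together. SMAD5 had 19396 and 21842 normalized counts in FF libraries, both above the 11962, 11892 and 15702 of the RF libraries. Its log2 fold change was 0.65 (SE 0.16, adjusted p = 0.111 from limma). SMAD9, formerly called SMAD8, had 36 and 51 in FF libraries, both below the 87, 151 and 155 of the RF libraries, with a log2 fold change of −1.54 (SE 0.37, adjusted p = 0.102). SMAD1 had 1642 and 1774 in FF libraries, inside the range of 1328 to 2170 in RF libraries. None of SMAD1, SMAD5 and SMAD9 passed the test.

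Among the inhibitors, BAMBI, a decoy receptor without a kinase domain, had 5304 and 5229 normalized counts in FF libraries, against 3338, 1805 and 2882 in RF libraries. This was a log2 fold change of 1.02 without overlap (SE 0.26, adjusted p = 0.112 from limma). SMAD6, an inhibitory SMAD, showed a log2 fold change of −0.30 (adjusted p = 0.427), and the ubiquitin ligases SMURF1 and SMURF2, which mark SMADs and receptors for degradation, had 0.38 and −0.14 (adjusted p = 0.447 and 0.742).

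The ID genes, whose products block helix-loop-helix transcription factors, are direct targets of SMAD1, SMAD5 and SMAD9. ID3 was higher in FF hens, with 2770 and 2798 normalized counts in FF libraries and 1362, 1056 and 1454 in RF libraries. Its log2 fold change was 1.12 (SE 0.17, adjusted p = 0.0414 from limma). ID1 had 821 and 810 in FF libraries and 792, 570 and 573 in RF libraries, also without overlap, and a log2 fold change of 0.36 that did not pass (adjusted p = 0.394). ID2 and ID4 overlapped between groups, with log2 fold changes of 0.23 and −0.50 (adjusted p = 0.678 and 0.589). ID3, like NR5A1, lost its call when any single library other than RF replicate 3 was left out.

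Transcription factors known from mammals to act on the AMH promoter include NR5A1, GATA4, WT1, SOX9 and SOX8, while NR0B1 counters them. NR5A1, also called SF-1, was higher in FF hens, with 17378 and 15528 normalized counts in FF libraries and 8090, 6920 and 7679 in RF libraries. Its log2 fold change was 1.12 (SE 0.13, adjusted p = 0.0228 from limma), opposite in sign to that of AMH. WT1, the Wilms tumour factor, had 1717 and 1311 in FF libraries and 2549, 3488 and 7223 in RF libraries, a log2 fold change of −1.42 without overlap that did not pass (SE 0.41, adjusted p = 0.156). With DESeq2, the authors called WT1 higher in RF hens. RF replicate 3, the RF library with the least AMH, had the most WT1. SOX9, which activates AMH in the testis of mammals, had 21 and 28 in FF libraries and 30, 284 and 20 in RF libraries. Its related factor SOX8 had 6 and 10 in FF libraries and 25, 77 and 7 in RF libraries, so for both the highest value was in RF replicate 2. GATA6 had 6314 and 5014 in FF libraries and 3834, 4557 and 3143 in RF libraries, without overlap and without passing the test (log2 fold change 0.57, adjusted p = 0.202). NR0B1, also called DAX1, showed a log2 fold change of −0.03 (adjusted p = 0.952).

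Of the 3 proprotein convertases, the enzyme family that cleaves AMH to its active form, none passed. FURIN had 11208 and 9142 normalized counts in FF libraries, both above the 7373, 6217 and 7364 of the RF libraries (log2 fold change 0.54, SE 0.15, adjusted p = 0.134 from limma). PCSK5 showed a log2 fold change of −0.33 (adjusted p = 0.439), and PCSK6 was at 5 to 15 in all 5 libraries.

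The last 6 genes of the list are linked to FSH action and follicle selection. The steroidogenic genes STAR and CYP11A1 and the inhibin subunit INHA were higher in FF hens, with log2 fold changes of 3.41, 3.72 and 4.0 (adjusted p = 0.0479, 0.0115 and 0.0115 from limma). FSHR had 5650 and 4591 normalized counts in FF libraries, inside the range of 3725 to 6380 in RF libraries (log2 fold change 0.11, adjusted p = 0.848). LHCGR, the LH receptor, had 412 and 363 in FF libraries, also inside the RF range of 278 to 438 (log2 fold change 0.23, adjusted p = 0.677). CYP19A1, the aromatase that makes estrogen, had 121 and 15 in FF libraries and 295, 165 and 616 in RF libraries, a log2 fold change of −2.82 without overlap that did not pass (SE 0.90, adjusted p = 0.184). Of the 5 genes of the list that passed, INHA alone passed when either FF library was left out. CYP11A1, INHA and STAR passed without RF replicate 1, and CYP11A1 and INHA without RF replicate 2. STAR also lost its call without RF replicate 3, so that it kept it in 1 of the 5 cases. None of the 5 passed without the mean-variance trend of limma, CYP11A1 and INHA alone passed with no minimum mean, ID3 did not pass with equal totals or a replicate block, and STAR did not pass with robust variance estimates.

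**Figure D3:**
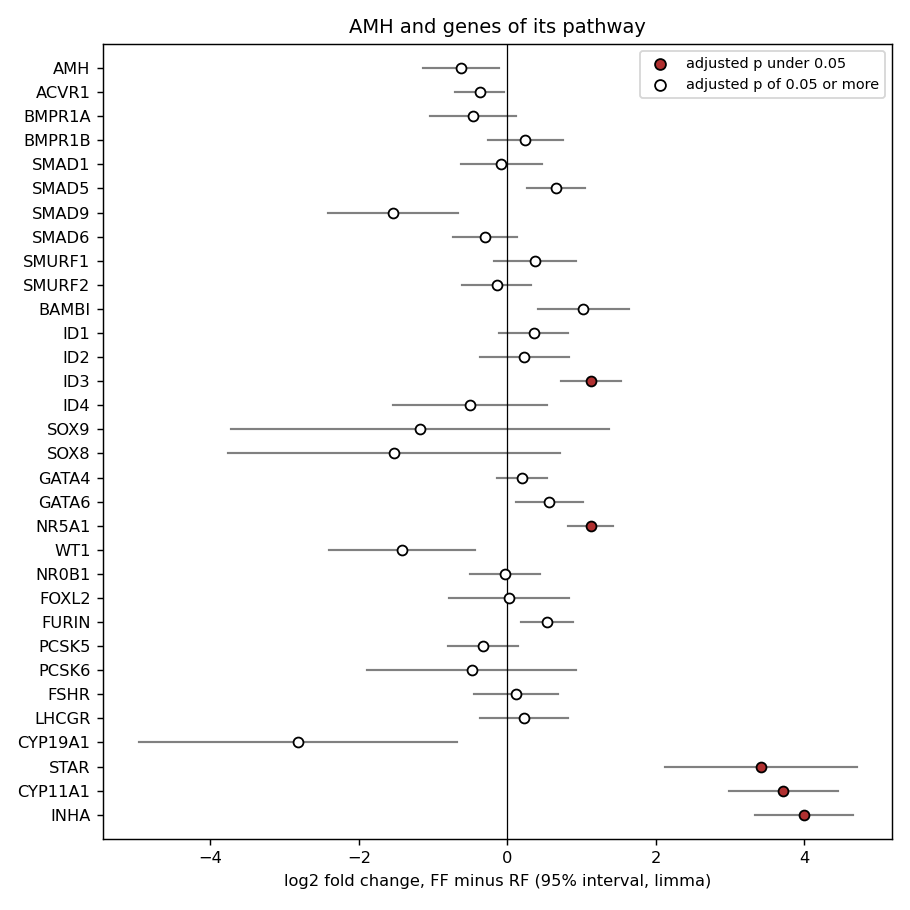
Log2 fold change, FF minus RF, of AMH and 31 other genes of the list, with 95% intervals from limma before adjustment, ordered by role from the ligand at the top to genes of follicle selection at the bottom. Filled points passed an adjusted p of 0.05. AMH lies at −0.62, and the 5 filled points, ID3, NR5A1, STAR, CYP11A1 and INHA, all lie above 0.

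Ratios of AMH to other granulosa cell genes were taken within each library, with the 7 genes picked after their values had been seen. The size of such a ratio depends on the lengths of both transcripts, but its change between libraries does not. AMH to INHA, the alpha subunit of inhibin, was 0.285 and 0.469 in FF libraries, against 11.2, 9.34 and 6.96 in RF libraries. AMH thus had fewer normalized counts than INHA in both FF libraries and more in all 3 RF libraries. AMH to INHBB, which encodes a beta subunit of both inhibin and activin, was 0.388 and 0.33 in FF libraries and 3.43, 2.29 and 1.22 in RF libraries. AMH to NR5A1 was 1.21 and 1.12 in FF libraries and 4.70, 4.02 and 3.12 in RF libraries. AMH to SMAD5 was 1.08 and 0.794 in FF libraries and 3.18, 2.34 and 1.52 in RF libraries. For these 4 genes the groups lay apart, and the log2 fold change of the second gene, at 4.0, 1.95, 1.12 and 0.65 in the same order, was positive and larger in size than that of AMH. Each of these 4 genes was higher in FF libraries without overlap, and AMH was lower without overlap. Their ratios therefore had to lie apart, and this separation adds nothing to the values of the genes themselves. AMH to GATA4 was 0.616 and 0.448 in FF libraries and 1.25, 0.942 and 0.672 in RF libraries, so that the groups lay apart by a narrow margin. AMH to FOXL2 was 0.768 and 1.15 in FF libraries and 1.59, 1.14 and 1.75 in RF libraries, where the groups overlapped. AMH to WT1 overlapped as well, with 12.3 and 13.2 in FF libraries and 14.9, 7.98 and 3.32 in RF libraries. With 2 libraries against 3, an exact permutation test of these ratios cannot reach 0.05, its smallest two-sided p being 0.1 on the absolute difference and 0.2 with the smaller tail doubled.

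**Figure D4:**
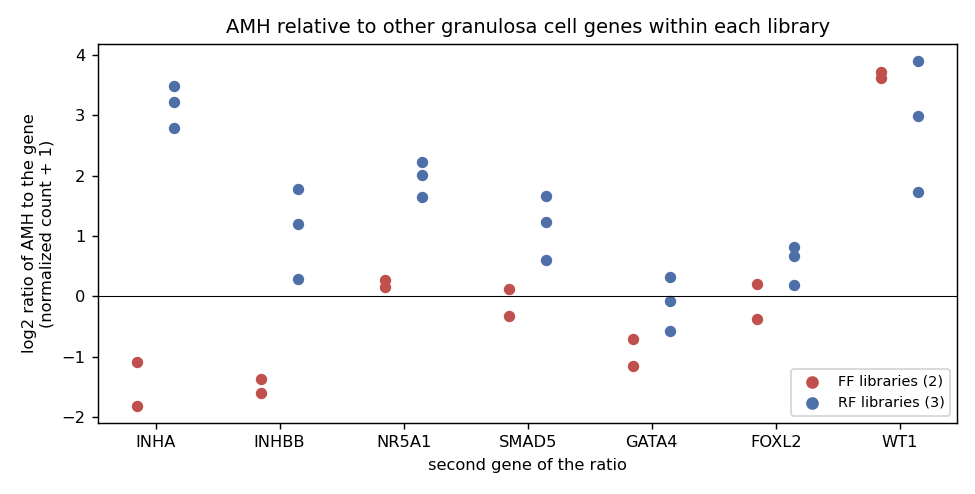
Log2 ratio of AMH to each of 7 granulosa cell genes within each library, with the 2 FF libraries left of the 3 RF libraries for each gene. The groups lie apart for INHA, INHBB, NR5A1, SMAD5 and GATA4 and overlap for FOXL2 and WT1. For INHA, INHBB, NR5A1 and SMAD5 this follows from the gene being higher, and AMH lower, in FF libraries without overlap.

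Genes with a profile like that of AMH over the 5 libraries were found by the root mean square difference of log2 values, after the mean of each gene was set to 0. Among 7954 genes with a symbol and a mean of at least 200 normalized counts, the 5 nearest were ARPP21, SMAP2, COLEC11, NUDT6 and CBY1. Their distances were 0.063, 0.068, 0.074, 0.083 and 0.087, against a median of 0.459 over all genes compared. ARPP21, a cAMP-regulated phosphoprotein, had 358 and 295 normalized counts in FF libraries and 648, 499 and 455 in RF libraries. SMAP2, a GTPase-activating protein of vesicle traffic, had 6170 and 5067 in FF libraries and 9812, 7812 and 6891 in RF libraries. COLEC11, a secreted collectin, had 189 and 155 in FF libraries and 385, 279 and 224 in RF libraries. All 5 genes, like AMH, were lowest in the FF libraries and highest in RF replicate 1. Their log2 fold changes ran from −0.75 to −0.53, and none passed the test, with adjusted p values of 0.18 to 0.244. This shared pattern and the like fold changes follow from picking the genes by their nearness to AMH over the same libraries. With only 5 libraries many genes can share such a profile, so likeness over them is a description.

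**Figure D5:**
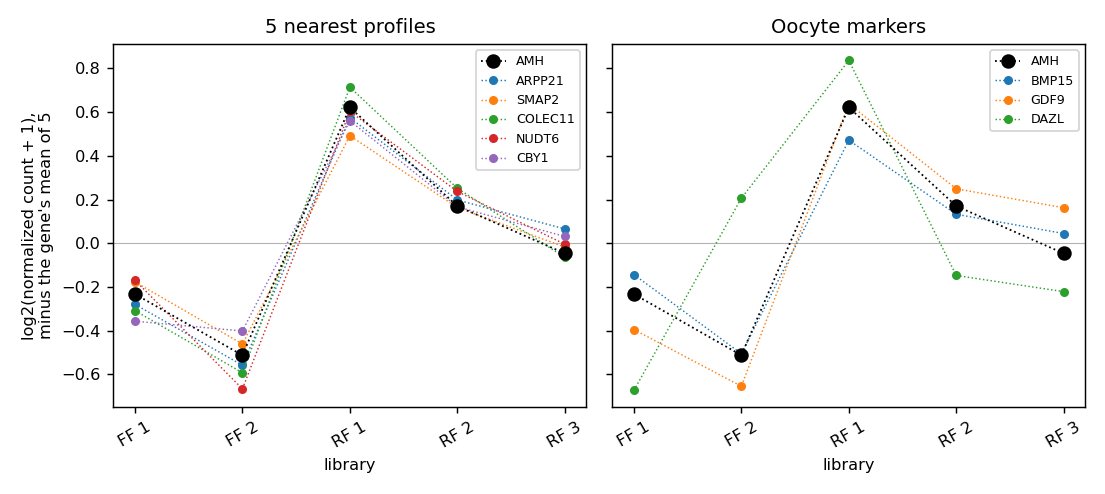
Log2(normalized count + 1) of AMH (black) and of other genes in each library, as the distance from the gene's own mean over the 5 libraries. The left panel shows the 5 genes with the nearest profiles and the right panel shows the oocyte markers BMP15, GDF9 and DAZL, and dotted lines only join the points of a gene. AMH, its 5 nearest genes, BMP15 and GDF9 are all highest in RF replicate 1 and lower in both FF libraries than in any RF library, whereas DAZL is not lower in both. The 5 nearest genes were picked for this likeness.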

How the data were processed

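Granulosa cell RNA of 2 FF and 3 RF hens was sequenced as poly(A)-selected, directional libraries. The authors used Trim Galore for trimming, STAR for alignment to galGal6 and DESeq2 to normalize counts per gene, with versions and read counter not given in the sources used here. Deposited values are whole-number normalized counts, treated as a score and not as raw reads, so no count model was run. FF and RF were compared with limma 3.58.1 (R 4.3.3) after log2 transformation of the normalized count plus 1, using a mean-variance trend, over 13305 genes with a mean of at least 10, with 3 residual and 3.71 prior degrees of freedom. The fit was tested on simulated data with normal errors and a spread modelled on these libraries. Such a test checks the code and says little about so few real hens. Groups and columns follow the sample labels, and 0 columns were unmatched. Members and lists were chosen with earlier results of these data known. Named genes are AMH, AMHR2, members of the AMH pathway list, the 5 genes with the nearest profiles, genes next to AMH in rank, and cell type markers. Other genes were picked after their values were seen. Exact permutation tests used scipy 1.17.1, two-sided by doubling the smaller tail or, where stated, on the absolute difference. Gene neighbours came from the RefSeq table of GRCg7b, used for order only, and no coordinates are given because the build differs. Figures were drawn with matplotlib 3.10.9.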

Additional observations from a re-analysis of the deposited data

How the results depend on the processing

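AMH was lower in FF hens under all 14 alternatives fitted with limma, with log2 fold changes of −0.77 to −0.43. The shared sign says little, since most of these settings could hardly change it. Pseudocount, minimum mean, trend and robust variance leave the difference of group means nearly as it is. Groups that do not overlap also keep their sign when any library is left out. AMH passed the test under none of the 14 alternatives (lowest adjusted p = 0.0847 from limma). Only 5 libraries limit this test, and a p above the threshold does not show that AMH was equal in both groups. The difference in mean rank, FF minus RF, was 76.3, 72 among genes with a symbol, and 64.3 to 88.3 when single libraries were left out. The rank per protein length and the AMHR2 settings were not run. The counts moved more. Of all tested genes, 112 were higher and 32 lower in FF hens. With no minimum mean these were 13 and 1, with the replicate block 53 and 9, and without the trend 0 and 0, where 2188 genes had an unadjusted p under 0.05. Lower genes numbered 70 with equal totals and 61 with equal upper quartiles. When single libraries were left out, 1 to 97 genes were higher and 0 to 31 lower, with 0 lower without either FF library (1785 and 2008 genes at an unadjusted p under 0.05). Of the AMH pathway list, 5 genes were higher as reported, 2 with no minimum mean, 0 without the trend, and 1 to 4 without single libraries, while 0 were lower under every alternative. Replicate numbers carry no stated pairing. Same-numbered libraries deviated from their group means with correlations of 0.109 and −0.073 across genes, and unlike-numbered ones with −0.173 to 0.173. The deviations of the 2 FF libraries mirror each other, so these correlations say little about pairing. With the replicate block AMH stood at −0.77 with an adjusted p of 0.0847 from limma. RF replicate 3 has no FF library of its number, and the estimate equals that without RF replicate 3. The setting relative to 4 granulosa genes (−0.70) was chosen after seeing the data.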

Other observations

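The genes next to AMH on its chromosome, by their order in the RefSeq annotation, had smaller fold changes than AMH where they were tested. Of the 10 nearest protein-coding genes, 5 had a row under their symbol. SF3A2, a splicing factor gene directly beside AMH, had 3115 and 3144 normalized counts in FF libraries and 3873, 3222 and 3164 in RF libraries (log2 fold change −0.12, SE 0.14, adjusted p = 0.683 from limma). PLEKHJ1, DOT1L, a histone methyltransferase, and MOB3A had log2 fold changes of −0.03, −0.22 and 0.10 (adjusted p = 0.922, 0.581 and 0.796), and LINGO3 was at 3 or lower in every library. SF3A2, PLEKHJ1 and MOB3A were highest in RF replicate 1, as AMH was, and DOT1L was highest in RF replicate 2. For PLEKHJ1 and MOB3A the margin was narrow, with 3976 and 791 normalized counts there against 3860 and 764 in FF replicate 1. The share of all genes highest in RF replicate 1 was not counted.

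Of the 10 protein-coding genes nearest to AMHR2 in the same annotation, 6 had a row under their symbol. PCBP2 and SP1, which flank it, had 9436 and 8552 normalized counts in FF libraries against 6326 to 6868 in RF libraries, and 4826 and 3626 in FF libraries against 4280 to 5187 in RF libraries. Neither passed the test (adjusted p = 0.134 and 0.631 from limma).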
